A study of Homo sapiens with 2 samples.

Results

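Imprinted genes are expressed from only the maternal or only the paternal copy, and 10 of them were followed here in neuroblastoma cells: DLK1, MEG3, IGF2, H19, CDKN1C, KCNQ1OT1, PEG3, PEG10, GRB10 and MEST. They were picked by symbol, with knowledge that DLK1 and IGF2 stood among the most lowered genes of this data set. Of the 10, 9 were in the deposited table of 36027 genes, and PEG3 was not analysed here. Imprinting is laid down as DNA methylation at control regions in the germ line and kept through cell division. Many genes marked this way act on fetal growth, and several lie in pairs in which a protein-coding gene speaks from one parental copy and a long noncoding RNA from the other. DLK1 (paternal) and MEG3 (maternal) form such a pair on chromosome 14, and IGF2 (paternal) and H19 (maternal) another on chromosome 11. CDKN1C (maternal) and KCNQ1OT1 (paternal) are neighbours of the IGF2 domain. In the sympathoadrenal lineage, from which neuroblastoma arises, DLK1 and IGF2 are known as products of chromaffin cells of the adrenal medulla.

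The cells were SK-N-BE(2)-C-pIND-HRASV12, an established human neuroblastoma line that carries a doxycycline-inducible HRASV12, a constantly active mutant of the small GTPase HRAS. 13 days of doxycycline at 100 ng/ml preceded 1 droplet library (induced, 666 cells), and cells of the same line left untreated over the same time gave 1 library (control, 956 cells). The construct was carried in both libraries, and the labels do not say whether the line was 1 clone. Doxycycline was given to the induced cells only, so its own effect and that of HRASV12 cannot be told apart. The libraries held 80359736 and 95350640 counts, with medians of 111582 and 85821 counts per cell, and no cell barcode was shared between them. Each group was thus a single library, so no difference below has a replicate check or a test, and each describes these libraries alone. Levels are in CPM, the gene's counts scaled by the summed counts of its library, and molecules were tagged at the 3′ end, so transcript length does not enter. Where values are set against each other, the induced library comes first. Intervals are exact 95% intervals for counting error only. HRAS itself stood at 161 CPM (induced) and 109 CPM (control), and transcripts of the transgene and of the native gene are not separated by such counting.

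Of the adrenergic markers that fit the labelled line, 7 had at least 10 CPM in either library, none of which was 1.5-fold higher and 2 of which were 1.5-fold lower. Over all genes with that level, 10.3% were higher and 7.73% lower. PHOX2A stood at 899 against 701 CPM and GATA3 at 218 against 209.5 CPM, and the lower markers were CHGA at 446 against 1004 CPM and DBH at 60.3 against 95.4 CPM. None of the listed markers of Schwann precursors, immune cells, adrenal cortex or erythroid cells reached 10 CPM in either library. The endothelial list summed to 72.8 against 104 CPM, and of its 2 genes with at least 10 CPM, 1 was 1.5-fold higher and 1 lower. The mesenchymal list, led by VIM (vimentin), summed to 1852 against 343 CPM, of which VIM made up 1510 against 182 CPM. Of its 4 genes with at least 10 CPM, 3 were 1.5-fold higher and PDGFRB, at 6.46 against 16.3 CPM, was lower. Induced cells reached lower in 2 measures per cell: mitochondrial percent had its 5th percentile at 1.44 against 8.52, and for MALAT1, a nuclear RNA, it was 33.6 against 238 CPM. Their part, and that of the mesenchymal genes, in the results below was not tested beyond the values given beside them.

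Promoter windows of 300 bases were found in the RefSeq table (GRCh38.p14) for 4 of the 9 genes: MEG3, H19, GRB10 and MEST. The table holds 5 windows of MEST, the gene that stood higher in the induced library, and 3 of MEG3, the partner of DLK1. Window 2 of MEST was the only one of its 5 with a match to TGANTCA, described below, and window 4 is from its downstream group of starts. Both are shown with window 1 of MEG3. Each is written 5′ to 3′ from 250 bases before to 50 bases after the start, and capitals mark CG dinucleotides, the sites that DNA methylation uses.
MEST window 2, chr7:130486097-130486396, plus strand: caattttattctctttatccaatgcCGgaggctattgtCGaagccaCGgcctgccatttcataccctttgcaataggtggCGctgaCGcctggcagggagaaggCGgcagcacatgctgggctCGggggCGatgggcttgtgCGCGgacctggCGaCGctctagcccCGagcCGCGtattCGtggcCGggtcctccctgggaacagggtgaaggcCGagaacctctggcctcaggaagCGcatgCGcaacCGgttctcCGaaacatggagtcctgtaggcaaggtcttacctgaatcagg
MEST window 4, chr7:130491808-130492107, plus strand: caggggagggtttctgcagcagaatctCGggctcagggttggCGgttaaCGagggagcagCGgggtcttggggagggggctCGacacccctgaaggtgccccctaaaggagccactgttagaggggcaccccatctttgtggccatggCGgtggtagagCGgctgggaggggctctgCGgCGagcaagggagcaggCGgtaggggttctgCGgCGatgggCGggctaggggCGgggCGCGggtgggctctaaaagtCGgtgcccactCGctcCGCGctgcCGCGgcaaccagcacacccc
MEG3 window 1, chr14:100825858-100826157, plus strand: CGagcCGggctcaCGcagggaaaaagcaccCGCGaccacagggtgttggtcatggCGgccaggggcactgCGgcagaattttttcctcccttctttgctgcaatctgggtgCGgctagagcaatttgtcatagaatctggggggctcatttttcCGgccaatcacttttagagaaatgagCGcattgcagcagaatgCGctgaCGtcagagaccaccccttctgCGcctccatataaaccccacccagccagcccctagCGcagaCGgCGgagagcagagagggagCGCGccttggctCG
Both MEST windows shown held 22 CG dinucleotides (13 to 25 over its 5 windows) and the MEG3 window held 19 (17 to 19 over its 3), against a median of 14 over 35116 windows of this length. The H19 window held 6. TGANTCA, a pattern looser than the AP-1 motif TGA(C/G)TCA, was searched on both strands. It gave 1 match in window 2 of MEST and none in its other windows, and 7.71% of all windows held at least 1. The match in MEST reads TGAATCA, with A at the middle base, and so is not the AP-1 motif itself. TGACGTCA, the cAMP response element, was present in all 3 MEG3 windows and in 1.85% of all windows. CACGTG, the E-box of MYC proteins, was in none of the windows of these 4 genes and in 7.26% of all windows. Such matches describe letters and not binding, and counts at the 3′ end do not tell which start was used.

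DLK1 is a membrane protein with EGF-like repeats that resembles Notch ligands and marks immature and chromaffin-type cells. It (ENSG00000185559.16) had 36881 counts in the induced library, 459 CPM, and 130613 counts in the control library, 1370 CPM. The ratio of induced to control was 0.335 (0.331 to 0.339). MEG3 (ENSG00000214548.18), the noncoding partner from the other parental copy, stood at 3.58 CPM (288 counts) and 3.72 CPM (355 counts), a ratio of 0.963 (0.821 to 1.13). DLK1 was lower in the induced library by far more than counting error, and the interval of MEG3 held 1. The MEG3 level leaned on few cells: 1 induced cell held 49 of its 288 counts, and without the cell richest in MEG3 in each library the ratio was 0.825 (0.697 to 0.976). In cells called G1 its log2 ratio was -0.80. RTL1, a retrotransposon-derived gene of the same domain that is paternally expressed like DLK1, stood at 4.37 against 10.3 CPM, and MEG8, a maternally expressed noncoding RNA there, at 4.75 against 5.52 CPM.

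IGF2 is a fetal growth factor that signals through the IGF1 receptor. It (ENSG00000167244.21) had 1568 induced counts, 19.5 CPM, and 6156 control counts, 64.6 CPM, giving a ratio of 0.302 (0.286 to 0.320). H19 (ENSG00000130600.19), a noncoding RNA, had 1 induced and 19 control counts, giving a ratio of 0.0624 (0.00150 to 0.393). H19 was thus near the limit of detection in both. IGF2-AS, which overlaps IGF2 on the other strand, stood at 6.31 against 9.97 CPM (507 and 951 counts). The sources used here do not say whether counting used strand, so reads of IGF2 and IGF2-AS may be mixed. INS and the INS-IGF2 read-through were not analysed here.

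KCNQ1OT1 is a nuclear noncoding RNA that silences its neighbours on the paternal copy, and CDKN1C is a cyclin-dependent kinase inhibitor among those neighbours. KCNQ1OT1 (ENSG00000269821.1) had 10317 induced counts, 128 CPM, and 23791 control counts, 249.5 CPM, giving a ratio of 0.515 (0.503 to 0.527). CDKN1C (ENSG00000129757.13) had only 78 and 117 counts, 0.971 and 1.23 CPM, with a ratio of 0.791 (0.586 to 1.062). Of its control counts 52 came from 1 cell, and without the cell richest in CDKN1C in each library the ratio was 1.28 (0.899 to 1.82), on the other side of 1. In cells called G1 (62 induced and 74 control counts) its log2 ratio was -1.19, but the control cell with 52 counts was among them. No direction is given for CDKN1C. KCNQ1, within which KCNQ1OT1 lies in the opposite direction, had 15 and 26 counts.

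The remaining members lie on chromosome 7. PEG10 (ENSG00000242265.5), a retrotransposon-derived gene with gag- and pol-like reading frames, had 5301 counts, 66.0 CPM, against 12759 counts, 134 CPM, a ratio of 0.493 (0.477 to 0.509). SGCE, a sarcoglycan gene that shares its promoter region with PEG10 and is also paternally expressed, stood at 62.4 against 68.9 CPM, a ratio of 0.905 (0.872 to 0.939). MEST (ENSG00000106484.16), an enzyme-like protein of the alpha/beta hydrolase fold, had 1288 counts, 16.0 CPM, against 258 counts, 2.71 CPM, a ratio of 5.92 (5.18 to 6.80). It was the only one of the 9 genes whose interval lay wholly above 1. MESTIT1, an antisense RNA at MEST, had 99 and 128 counts, and COPG2, which meets MEST tail to tail, had 154 and 201 counts. GRB10 (ENSG00000106070.19), an adaptor that restrains insulin and IGF1 receptors, had 26 and 27 counts, a ratio of 1.14 (0.641 to 2.03), too few to show a difference.

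**Figure D1:**
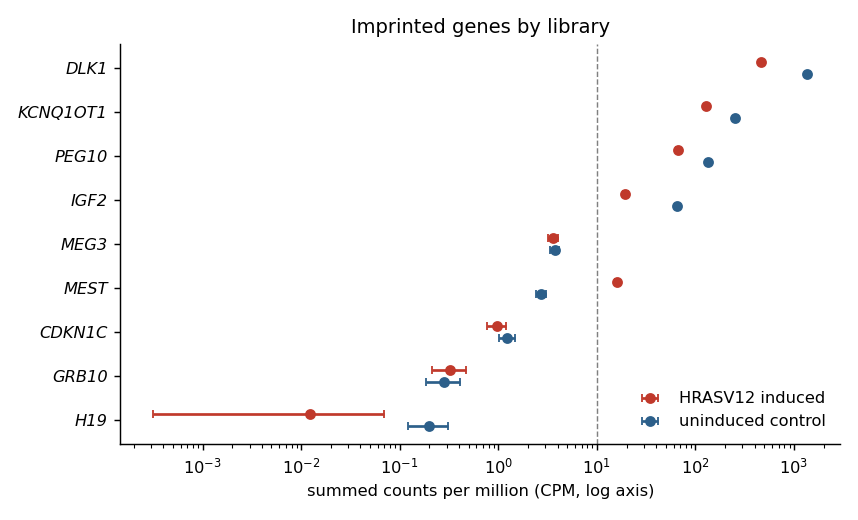
Summed level in CPM (log axis) of the 9 imprinted genes in the induced (red) and control (blue) library, with exact 95% Poisson intervals that cover counting error only and are narrower than the points for the abundant genes; the dashed line marks 10 CPM. DLK1, KCNQ1OT1, PEG10 and IGF2 stand lower in the induced library, MEST stands higher, and the intervals of MEG3, CDKN1C and GRB10 overlap.

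A gene was called measured if either library had 10 CPM or more of it, and a gene was counted as lower or higher from 1.5-fold, taken on the log2 ratio of CPM with 1 CPM added to each library. On this scale 5 of the 9 genes were measured: DLK1 (-1.58), IGF2 (-1.68), PEG10 (-1.01) and KCNQ1OT1 (-0.95) were lower and MEST (2.20) was higher. Over all 9017 measured genes, 7.73% were lower and 10.3% higher, with a median log2 ratio of -0.04. The genes were picked with this contrast in view, so these counts describe the choice. With DESeq2 size factors the background was 4.12% lower and 16.3% higher with a median of 0.13, with TMM scaling 5.04% and 14.3%, and, once ribosomal protein and mitochondrial genes were taken out of the totals, 12.3% and 8.36% with a median of -0.14. The 4 lower genes and MEST kept their direction and their call under each of these scalings. In the cells that reached the control 5th percentile of both mitochondrial percent and MALAT1 (406 induced and 871 control cells), the log2 ratios were -1.28 for DLK1, -1.30 for IGF2, -0.85 for PEG10, 2.17 for MEST and -0.43 for KCNQ1OT1, the last no longer past 1.5-fold.

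To compare cells, each was thinned at random to 53000 counts, which kept 562 induced and 766 control cells and left out 104 and 190. DLK1 then had at least 1 count in 64.1% of induced cells (59.9 to 68.0) and 99.1% of control cells, and the unthinned shares were 73.4% and 98.6%. In control cells the 5th percentile was 4 counts, the median 58 and the highest 642. In induced cells the median was 2, the upper quartile 32, the 95th percentile 116.9 and the highest 268, with 202 cells at 0. The libraries thus overlapped over nearly the whole range, with the induced cells spread from none to levels usual in control cells. Of the induced cells, 53.6% (49.3 to 57.7) had less than the control 5th percentile, and 15.8% (12.9 to 19.1) were at or above the control median. The variance was 77.1 times the mean in induced and 67.2 times in control cells, where genes of a like mean had a median of 4.44 and 6.23.

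IGF2 followed the same form at a lower level. It had at least 1 count in 30.1% of induced and 77.3% of control cells (37.2% and 80.6% unthinned), and the medians were 0 and 2 counts. PEG10 was found in 86.8% and 96.9% of cells, and 22.6% of induced cells were at or above the control median of 6. KCNQ1OT1 was found in 84.5% and 96.2% of cells, with medians of 4 and 10 counts. For these 2 genes each percentile taken, from the 5th to the 95th, was lower in the induced library. Cells at 0 made up 13.2% of induced and 3.13% of control cells for PEG10, and 15.5% and 3.79% for KCNQ1OT1. The lower level was not shared by all clusters of cells, described below. MEST was found in 16.9% of induced cells (13.9 to 20.3) and 7.44% of control cells (5.68 to 9.53), or 23.3% and 10.4% unthinned. Its counts were concentrated: the 5% of cells with the most MEST held 76.8% (induced) and 87.0% (control) of its counts. MEG3 was found in 11.2% and 16.8% of cells, CDKN1C in 4.80% and 2.87%, and GRB10 in 1.42% and 1.31%. H19 was found in 0 of 562 induced cells, which allows a share of up to 0.534% (3 cells of the total) with a count at this depth, and in 1.31% of control cells. Without thinning 1 induced cell had an H19 count. Free RNA in droplets adds counts to cells that do not express a gene, and a single cell line offers no cell type that lacks these genes. The lowest DLK1 level in any cluster with at least 20 cells of a library, described below, was 14.2 CPM.

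**Figure D2:**
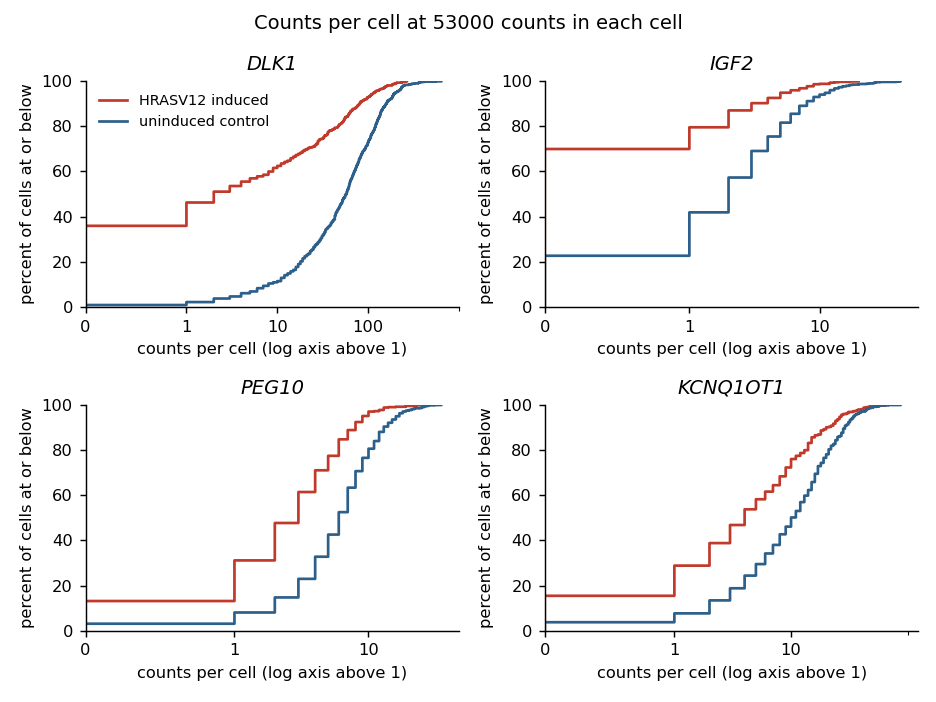
Percent of cells at or below each count per cell, for cells thinned to 53000 counts, in the induced (red, 562 cells) and control (blue, 766 cells) library; the axis is logarithmic above 1 and the step at 0 is the share of cells without a count. For DLK1 the induced curve starts at 35.9% and the control curve at 0.914%, and the curves end at 268 and 642 counts.

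The level of DLK1 in induced cells went with the cell cycle phase called from expression. In thinned induced cells DLK1 stood at 211 CPM in the 340 cells called G1, 762.5 CPM in the 169 called G2M and 1188 CPM in the 53 called S. In control cells it stood at 1463, 1374 and 1423 CPM in 149, 423 and 194 cells. The order seen in induced cells was thus absent from the control library, where the phases lay within a narrow band. IGF2 stood at 8.88, 28.9 and 55.5 CPM in G1, G2M and S of the induced and 54.8, 64.1 and 69.6 CPM of the control library. PEG10 was lower in G1 in both libraries, at 53.4, 84.3 and 97.5 CPM in induced and 99.7, 144 and 139 CPM in control cells. MEST went the other way, at 20.8, 9.60 and 6.05 CPM in induced G1, G2M and S, and at 6.58, 3.12 and 1.56 CPM in control. Among only the cells called G1 in each library (422 induced and 229 control, unthinned), the log2 ratio was -2.60 for DLK1, -2.57 for IGF2, -1.48 for KCNQ1OT1, -0.98 for PEG10 and 1.94 for MEST. Phase calls read expression themselves, and the part of phase in the differences was not tested.

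Induced cells with more HRAS counts had less DLK1 and IGF2. In thinned induced cells with 0 to 3, 4 to 9 and at least 10 HRAS counts (73, 307 and 182 cells), DLK1 stood at 931, 514 and 207 CPM. In control cells of the same bins (188, 502 and 76 cells) it stood at 1332, 1429 and 1420 CPM. IGF2 stood at 47.8, 19.8 and 7.05 CPM in induced and 52.8, 65.4 and 79.4 CPM in control cells. In the lowest bin the IGF2 interval of the induced cells (41.2 to 55.2) overlapped that of the control cells (48.4 to 57.5), and in the highest bin the libraries were far apart. PEG10 stood at 76.8, 69.8 and 58.0 CPM in the induced bins. KCNQ1OT1 was lower with more HRAS in both libraries, at 221.5, 150 and 109 CPM in induced and 306, 244 and 179 CPM in control cells. MEST showed no such order in the induced bins, at 17.8, 18.2 and 11.7 CPM. Across cells the rank correlation with HRAS was weak, with Spearman's rho of -0.17 for DLK1 and -0.22 for IGF2 over 562 induced cells and 0.04 and 0.12 over 766 control cells. Without thinning, these were 0.10 and 0.06 over 666 induced and 0.39 and 0.39 over 956 control cells, so the sign in induced cells held only with thinning.

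**Figure D3:**
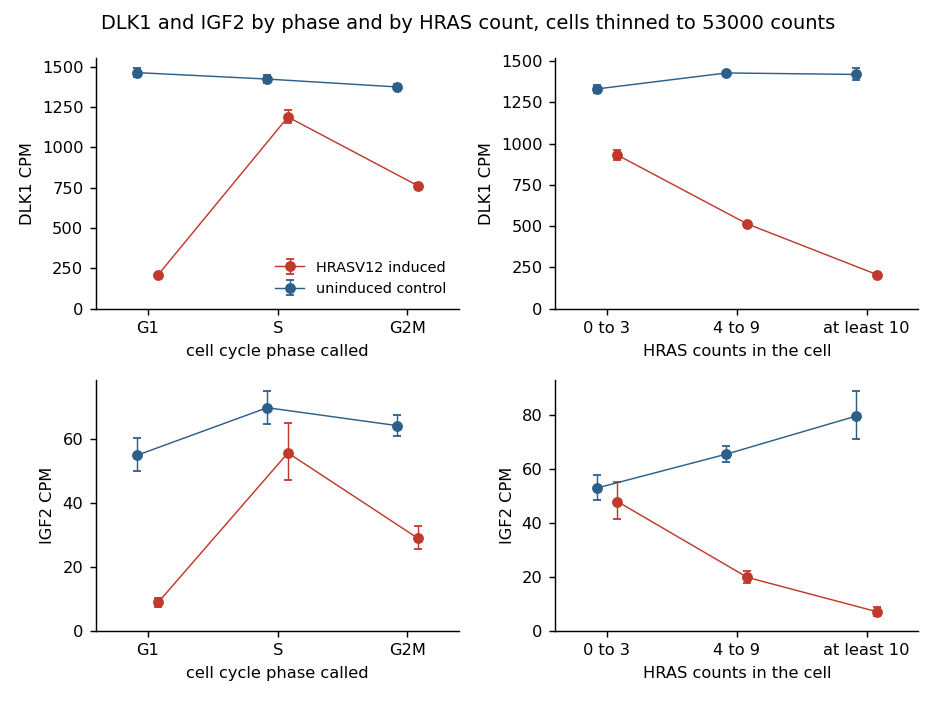
DLK1 (top) and IGF2 (bottom) in CPM by cell cycle phase called (left) and by HRAS counts in the cell (right), for cells thinned to 53000 counts, induced in red and control in blue, with exact 95% Poisson intervals that cover counting error only. Control cells stay between 1332 and 1463 CPM of DLK1 in all bins, and induced cells range from 207 to 1188 CPM.

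Clusters of cells, formed with the listed imprinted genes left out of the variable genes, showed where the low levels lay. Clusters 6, 7 and 8 were at least 90% induced cells and held 69.4% of the induced library, and a cluster mostly of 1 library may be that library and not a type of cell. DLK1 stood at 304, 424 and 144 CPM in their induced cells, IGF2 at 6.96, 12.9 and 7.36 CPM, and PEG10 at 59.9, 69.6 and 47.5 CPM. Clusters 1, 2, 3 and 5 had at least 20 cells of each library and held 29.3% of the induced and 83.5% of the control cells. Over these 4 clusters together, DLK1 stood at 1192 CPM in induced and 1238 CPM in control cells, IGF2 at 56.9 and 59.1 CPM, KCNQ1OT1 at 285 and 281 CPM and PEG10 at 101 and 131 CPM. The clusters enter these sums in different shares per library. By cluster, PEG10 stood at 104 against 108 CPM in cluster 1 and 130 against 135 CPM in cluster 2, with intervals that overlapped, and at 115 against 150 CPM in cluster 3 and 26.2 against 52.7 CPM in cluster 5. KCNQ1OT1 stood at 360 against 345 CPM in cluster 1, 236.5 against 246 CPM in cluster 2, 198 against 247 CPM in cluster 3 and 259 against 324 CPM in cluster 5. IGF2 stood at 58.8 against 53.8, 78.0 against 60.5 and 68.7 against 64.5 CPM in clusters 1, 2 and 3. No cluster had at least 3 of the fixed cell type markers among its 10 leading genes, so all are called by number.

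For DLK1 too the order of the libraries was not the same in all clusters. In cluster 1, led by KLHL24, CHGA and KCNQ1OT1 among others, DLK1 stood at 1125 CPM in induced and 1149 CPM in control cells. In cluster 2, led by mitotic genes such as ASPM and CENPE, it stood at 1573 (1525 to 1621) in induced and 1349 (1330 to 1367) in control cells. In cluster 3, led by histone and replication genes, it stood at 1652 (1615.5 to 1689) against 1308 (1296 to 1320). The summed level of DLK1 was thus higher in the induced cells of clusters 2 and 3 than in control cells beside them. These intervals leave out the spread between cells, and only 24 and 42 induced cells enter, so whether the order would hold in other cells was not tested. Cluster 5 (28 induced and 26 control cells), led by CD93, COL4A1 and CDH5, had 14.2 CPM of DLK1 in induced and 332.5 CPM in control cells, and 0 counts of IGF2 in induced against 22.5 CPM in control cells. The endothelial marker list summed to 750 and 577 CPM there, and to 82.2 and 208 CPM in cluster 4. With cluster 5 left out of both libraries, the log2 ratio of DLK1 was -1.56 and that of IGF2 -1.66. The part of such cells in the libraries' difference was not tested. Cluster 4, with CARTPT as its leading gene and nearly all its cells from the control library, had the highest control levels, 1955 CPM of DLK1 and 89.4 CPM of IGF2. Its 9 induced cells stood lower, at 1021 CPM of DLK1 and 34.6 CPM of IGF2.

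MEST followed other clusters than DLK1. In induced cells it stood at 31.8 CPM in cluster 6, 21.1 CPM in cluster 8 and 18.2 CPM in cluster 5, but at 1.53 CPM in cluster 7, which was also nearly all induced. Among control clusters of at least 20 cells it was highest in cluster 5 at 14.2 CPM and in cluster 2 at 5.65 CPM. The 4 control cells in cluster 8 stood at 88.1 CPM (58.6 to 127). Clusters 6 and 8 together held most MEST counts of the induced library (31.5% and 58.4%). DLK1 was low in all of clusters 5 to 8, so that low DLK1 did not always go with high MEST.

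**Figure D4:**
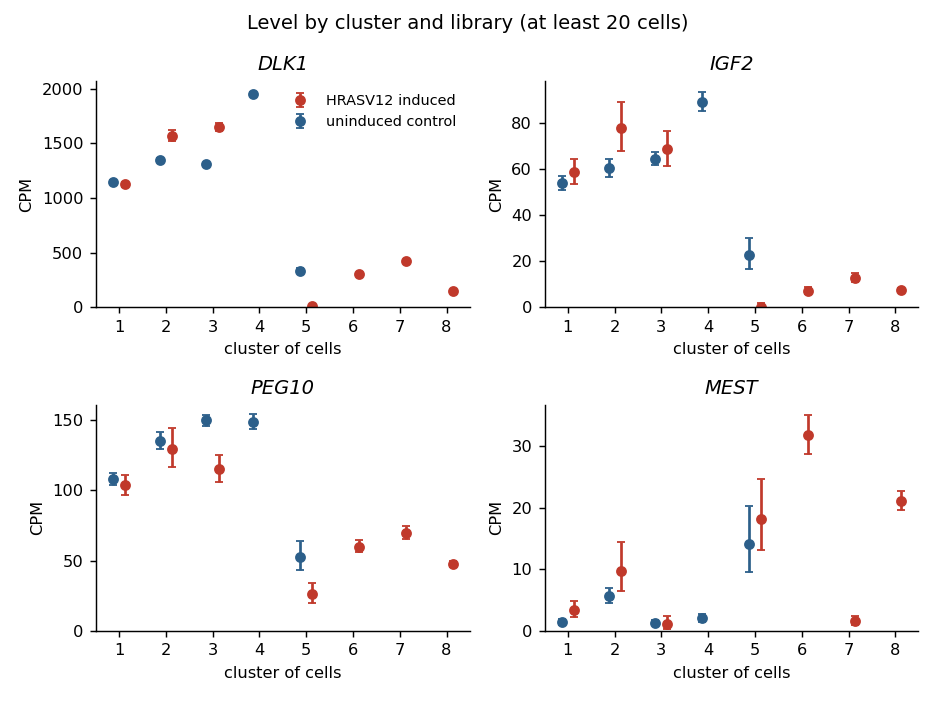
Level in CPM of DLK1, IGF2, PEG10 and MEST in each cluster with at least 20 cells of a library (induced red, control blue), with exact 95% Poisson intervals that cover counting error only. DLK1, IGF2 and PEG10 are lower in clusters 5 to 8 than in clusters 1 to 4, and MEST is low in cluster 7 as well as in clusters 1, 3 and 4.

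Across cells of 1 library, DLK1 and IGF2 went together. Spearman's rho was 0.68 over 562 induced and 0.51 over 766 control cells thinned to the same depth, and 164 of the 169 induced cells with IGF2 also had DLK1. In the 202 induced cells without a DLK1 count, IGF2 stood at 0.65 CPM, against 29.8 CPM in the 360 with one. The same cells had less PEG10 (47.7 against 77.6 CPM) and KCNQ1OT1 (117 against 163 CPM) and more MEST (26.1 against 10.4 CPM) and VIM (2362 against 1114 CPM), while HRAS stood at 169 and 159 CPM. DLK1 with VIM gave -0.58 (induced) and -0.07 (control), and IGF2 with VIM gave -0.51 and -0.12; without thinning the values were -0.37 and 0.10 for DLK1 and -0.36 and 0.03 for IGF2. DLK1 with MEG3 gave 0.25 and 0.18, and DLK1 with PEG10 gave 0.33 and 0.07. The points of each correlation are cells of the same library and are not replicates.

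KCNQ1OT1 went with another nuclear RNA rather than with DLK1. Its rho with MALAT1 was 0.77 over induced and 0.70 over control cells. In cells binned at the quartiles of MALAT1 in the control library, KCNQ1OT1 stood at 29.2, 128, 242 and 284 CPM in induced and 65.5, 225, 300 and 419 CPM in control cells, from the lowest bin up. Induced cells were lower in every bin, and 231 of the 562 induced cells fell in the lowest. MALAT1 itself was not equal within the outer bins, at 374 against 570 CPM in the lowest and 10853 against 7739 CPM in the highest. In the bins between it stood at 1987 against 2037 and 3986 against 3958 CPM. DLK1 over the same bins was 341.5, 616, 765 and 411 CPM in induced cells, without a steady order. Whether cells low in MALAT1 had lost nuclear RNA was not tested.

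Among 4734 genes with at least 25 CPM in both libraries, likeness to DLK1 was taken as the smaller of the rhos in the 2 libraries. The genes most like DLK1 were DBH (0.58 in induced and 0.68 in control cells), the enzyme that makes noradrenaline, RAMP1 (0.51 and 0.73), a partner of the calcitonin receptor-like receptor, SLC18A1 (0.33 and 0.32), a vesicle transporter of amines, RGS16 (0.65 and 0.32) and HSPE1 (0.36 and 0.30). IGF2 was under 25 CPM in the induced library and so could not enter this ranking. Its own rhos with DLK1 were 0.68 and 0.51, so that its smaller value lay just above that of RAMP1. The genes most like IGF2 were DLK1, DBH (0.53 and 0.49), RAMP1 (0.36 and 0.40), SLCO3A1 (0.34 and 0.35) and RFK (0.39 and 0.33). DBH and RAMP1 were on both lists. Their own levels were 60.3 against 95.4 CPM for DBH and 135 against 229 CPM for RAMP1, in the induced and control library.

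Other imprinted genes showed no common direction. Of 38 in the table, 14 were measured, with 4 higher and 3 lower (10.3% and 7.73% over all measured genes). The median log2 ratio of the 14 was -0.01, beside -0.04 over all measured genes. Highest was TFPI2, an inhibitor of serine proteases, at 23.5 against 1.63 CPM, a ratio of 14.5 (12.3 to 17.1). Its counts were concentrated. The 28 induced cells of cluster 5 held 984 of them, 438 CPM, and the control cells there stood at 44.9 CPM. Induced cells of clusters 6, 8 and 7 stood at 41.3, 9.46 and 0.689 CPM. SNRPN, a splicing protein of the Prader-Willi region, stood at 297 against 168 CPM, and BLCAP and NAP1L5 at 42.8 against 24.8 and 50.04 against 32.7 CPM. Lowest were RTL1, given above, and ZDBF2, a zinc finger gene, at 24.9 against 41.6 CPM. PPP1R9A, a neighbour of PEG10, stood at 10.3 against 16.6 CPM. The 3 lower genes did not hold under every scaling: 1 was left with TMM and 0 with DESeq2 size factors. GNAS, which encodes a G protein subunit, was the most abundant, at 2450 against 1945 CPM.

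**Figure D5:**
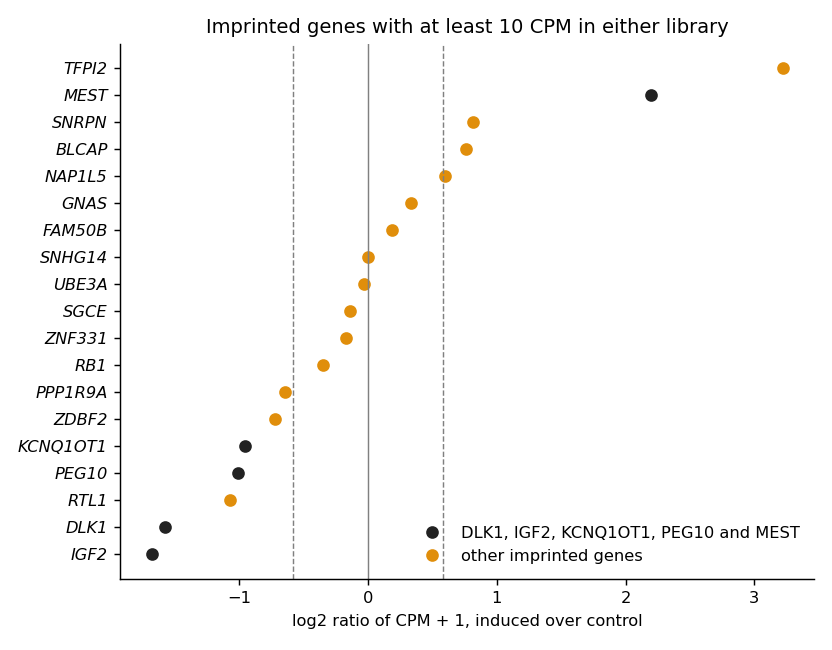
Log2 ratio of CPM with 1 CPM added, induced over control, for all 19 imprinted genes called measured; black points are DLK1, IGF2, KCNQ1OT1, PEG10 and MEST, orange points the other listed imprinted genes, and dashed lines mark 1.5-fold. The points run from -1.68 (IGF2) to 3.22 (TFPI2), on both sides of 0.

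Genes around IGF2 signalling were mostly level. Of 18 genes of this list in the table, 12 were measured. Of these, 1 was higher and 2 were lower (10.3% and 7.73% over all measured genes), with a median of -0.02. IRS2, an adaptor of the insulin and IGF1 receptors, stood at 34.2 against 17.2 CPM. IGF2BP1, an RNA-binding protein named for its binding to IGF2 messages, stood at 59.5 against 106 CPM, and PAPPA, a protease that frees IGF from a binding protein, at 5.81 against 10.9 CPM. The receptors were near level, at 63.6 against 74.5 CPM for IGF1R and 35.9 against 31.3 CPM for IGF2R, the scavenging receptor that is itself imprinted in mice. IGFBP5, an IGF-binding protein, stood at 741 against 498 CPM, a ratio of 1.49 (1.47 to 1.51), just under 1.5-fold. In the limit on mitochondrial percent and MALAT1 given above, 2 genes were higher and 0 lower (9.19% and 4.32% over all measured genes there).

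Notch genes were listed because DLK1 resembles Notch ligands. Of 20 in the table, 7 were measured, 2 were higher and 0 lower (10.3% and 7.73% over all measured genes), with a median of 0.15. The higher genes were the target genes HEY1, at 63.1 against 38.0 CPM, and HES1, at 12.03 against 7.53 CPM. The lowest ratios were those of ADAM10, a protease that cleaves Notch, at 35.0 against 40.1 CPM, and ADAM17, at 9.47 against 10.7 CPM. No NOTCH receptor was measured.

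Partners of CDKN1C in the cell cycle, its relatives and the kinases and cyclins they bind, gave 8 measured genes of 10, with 1 higher, 3 lower and a median of -0.14, where 7.73% lower and 10.3% higher is the share over all measured genes. CCND1 (cyclin D1) stood at 808 against 450 CPM and CDKN1A, a relative of CDKN1C, at 29.5 against 21.01 CPM. CDK6 stood at 111 against 248 CPM, CCNE1 at 5.60 against 11.7 CPM and CDK2 at 6.91 against 12.4 CPM.

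Genes that act on imprints and other silent chromatin, both to keep and to remove them, were the list with the most lower members. Of 15 in the table, 12 were measured, 7 were lower and 0 higher, with a median of -0.61. Over all measured genes 7.73% were lower and 10.3% higher, with a median of -0.04. The 7 were TET1, which oxidises methylated cytosine, at 9.87 against 24.1 CPM, UHRF1 and DNMT1, which copy DNA methylation after replication, at 22.2 against 47.7 and 101 against 185 CPM, and SUZ12, EZH2, EHMT2 and CTCF. The highest ratios in the list were those of DNMT3A, at 64.6 against 75.7 CPM, and TET2, at 21.7 against 27.9 CPM. UHRF1 and DNMT1 went with phase in both libraries. UHRF1 stood at 8.93 against 14.1 CPM in thinned cells called G1 and at 79.7 against 88.0 CPM in those called S, and DNMT1 at 63.5 against 84.5 and 197 against 218 CPM. The part of the phase shift in these ratios was not tested, and no DNA methylation was measured.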

How the data were processed

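Whole-number counts per gene and cell were deposited by the authors for 36027 genes and 1622 cells, with an annotation of cells that gives library, total and the percent of mitochondrial counts as the authors computed it. Per the submitters' processing notes, kallisto and bustools were used, and neither their versions nor a genome build is given in the sources used here. Annotation rows carry no barcode and were taken in the order of the table's columns, and totals differed by at most 192 counts. All cells are marked as singlets, and no doublet caller was run. Counts were summed per library and scaled to CPM. Sums have exact Poisson intervals, ratios exact conditional intervals and shares Clopper-Pearson intervals, at 95% and for counting error only. Cells were thinned to 53000 counts. Phases were scored with scanpy 1.11.5. Leiden clusters (igraph 0.11.9) used 2000 variable genes, 30 principal components, 15 neighbours and a resolution of 0.5, with 47 imprinted genes left out of the variable genes. edgeR 4.0.16 and DESeq2 1.42.0 gave scaling factors only. The calculation was checked on simulated counts.

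The genes and lists were chosen with earlier results of these data known. The rule names all members, genes that overlap them, HRAS, the 2 highest and 2 lowest measured log2 ratios of each list, and the 5 genes most like DLK1 and IGF2. Other genes named, such as MEG8, BLCAP, NAP1L5, PPP1R9A, GNAS, IGF1R, IGF2R, CDK2, DNMT1, SUZ12, EZH2, EHMT2, CTCF, VIM and MALAT1, and those in the closing section, were chosen after their values were seen. Listed genes outside the table, KCNQ1DN and ZIM2 among them, were not analysed here. Alternatives were other scalings, cell filters, thinning depths, pseudocounts, floors and a finer clustering. Leaving out cluster 5, or the cell richest in a gene in each library, was chosen after seeing the data. 1 listed adrenergic marker is not reported here.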

Additional observations from a re-analysis of the deposited data

How the results depend on the processing

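The counts of 4 lower and 1 higher gene among the imprinted genes chosen held under the scalings, cell filters, thinning and pseudocounts tried, except that 3 were lower among cells above the limits of mitochondrial percent and MALAT1 and that 0 were higher with a floor of 50 CPM, which MEST does not reach. Log2 ratios ranged from -2.60 to -1.28 for DLK1, -2.57 to -1.30 for IGF2, -1.10 to -0.85 for PEG10, -1.48 to -0.43 for KCNQ1OT1, 1.45 to 2.52 for MEST, -0.80 to 0.18 for MEG3 and -1.19 to 0.15 for CDKN1C. The low end for CDKN1C came from cells called G1, which included the control cell with 52 of its counts. Of the other imprinted genes, 1 was lower with TMM, 0 with DESeq2 size factors, 1 in that limit and 0 from 50 CPM, and 10 were higher with no floor and 2 from 50 CPM. Of the IGF genes, 2 were higher with TMM, with DESeq2 size factors, with totals without ribosomal protein and mitochondrial genes, without the 5% of cells with the most counts, without the 20% with the fewest, in that limit, in G1, after thinning and without cluster 5, 3 with no floor and 0 from 50 CPM. Of the IGF genes, 0 were lower in that limit, 1 with a pseudocount of 5 CPM and 1 from 50 CPM. Of the values given for single genes and pairs, 167 stayed within the spread set for them, 100 moved beyond it and 2 turned a rho of at least 0.2 in size to the other sign. IGFBP5 lies beside the 1.5-fold line. Without thinning, rho was 0.0574 for IGF2 and HRAS in induced cells and 0.0468 for PEG10 and VIM in control cells, both of the opposite sign, as were 3 weaker rhos (DLK1 with HRAS in induced cells, DLK1 and IGF2 with VIM in control cells), and the cause was not tested. The near-level MEG3, GRB10 and CDKN1C ratios also fell on either side of 0. No paired analysis was possible because each group is 1 library. H19, GRB10, CDKN1C and MEG3 are limited by their counts.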

Other observations

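Several listed genes under 10 CPM differed by more than counting error between the libraries. PHLDA2, a growth-restraining gene beside CDKN1C that is maternally expressed, had 312 induced and 2 control counts, giving a ratio of 185 (50.8 to 1535). SLC22A18, its neighbour, had 315 and 111 counts, a ratio of 3.37 (2.70 to 4.22), while CDKN1C had 78 and 117. CPA4, a carboxypeptidase gene near MEST, had 416 and 44 counts, a ratio of 11.2 (8.21 to 15.7). Most induced counts of PHLDA2 and CPA4 came from the 74 induced cells of cluster 6, which held 217 and 334 of them. The median mitochondrial percent of those 74 cells was 4.97, against 11.1 over the induced library, and its part was not tested. In induced cells of cluster 7 the 2 genes stood at 0.306 and 0.383 CPM. IGFBP6, a binding protein that prefers IGF2, had 753 and 121 counts, a ratio of 7.38 (6.09 to 9.02). JAG1, a Notch ligand, had 95 and 11 counts, a ratio of 10.2 (5.48 to 21.2).

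Rare cells carried much of the scarce genes. 1 thinned control cell had 40 of the CDKN1C counts and 1 induced cell had 27 of the MEG3 counts, where the other cells of those libraries mostly had none. In the finer clustering at a resolution of 1.0, the highest DLK1 level of a control cluster was 3146 CPM (88 cells), and the highest MEST level of an induced cluster was 97.0 CPM (71 cells), with VIM at 4507 CPM.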
